A study of Equus caballus with 21 samples.

Results

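Solute carriers are membrane proteins that move sugars, amino acids, metals, ions, vitamins and other small molecules into and out of cells and organelles. The genes described here were all genes of the deposited table of 21 libraries whose symbol had the form SLC, a family number, A and a member number, leaving out the mitochondrial carriers of family SLC25 and SLC12A2. This gave 123 of the 10307 genes in that table, from 43 SLC families. By name 121 were carriers, and the other 2, SLC4A1AP and SLC7A6OS, are named after an adaptor protein of a carrier and a gene on the strand opposite to one. The count table held 277 symbols of this form in all. Of the 154 outside the 21-library table, 93 had no count in any library and 61 had a count, the highest total being 133.

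The uterine lining of the mare consists of a luminal epithelium facing the cavity, glands that run down from it, and a stroma of fibroblasts and vessels. The early horse conceptus moves freely in the uterine cavity before it fixes, and lives on what the epithelia secrete and let pass. Glucose carriers, amino acid carriers and carriers of metals and vitamins in the epithelia set part of that supply, and several amino acid carriers work only as a pair of a light and a shared heavy chain.

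RNA was sequenced from luminal epithelium (LE), glandular epithelium (GE) and stroma (S) cut by laser capture microdissection from endometrial biopsies of healthy warmblood mares. All mares had received human choriogonadotropin to induce ovulation, the pregnant ones were also inseminated, and all biopsies were taken on day 12 of the estrous cycle (cyclic) or of pregnancy. By their letters the libraries came from 5 mares, named B, C, J, M and U, although 6 are mentioned in the series' design. There were 5 cyclic and 4 pregnant LE libraries, 4 and 4 GE libraries, and 2 and 2 S libraries. Both epithelia in both states were available from every mare but J, which gave cyclic LE alone. In stroma only mare M gave both states. The labels give no ages.

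Libraries held between 136259 and 1467510 counts, and 0.293% to 66.2% of them fell on 1 ribosomal RNA gene, RN18S. Between 30 and 110 of the 123 genes had a count in a library, so single libraries with none are common and a 0 means under about 3 counts of that library. Levels are given as CPM, the usual scaling of counts by library size, here with edgeR's TMM factors over all 21 libraries, in which 1 count is worth 0.568 to 6.75 CPM. The summed level of 4 gland genes was 14230 to 52660 CPM in GE, 1257 to 4808 in LE and 846 to 5573 in S. Most of it was P19, at 10530 to 52510 CPM in GE and 333 to 4359 CPM in LE; FOXA2 had no count in any library, and SERPINA14 went against the list, at 0 to 22.7 CPM in GE and 2.70 to 1271 CPM in LE. No list of markers of LE alone was used. That of 6 fibroblast genes was 3801 to 9834 CPM in S, 525 to 5028 in LE and 260 to 1486 in GE, so fibroblast genes had counts in both epithelia too. In such samples fewer cells of a type and less RNA per cell cannot be told apart.

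The 123 genes took a larger part of the counts in the epithelia than in the stroma. They made up 90.7 ± 28.5 (SD, n = 9) of every 10000 counts in LE, 69.7 ± 12.4 (n = 8) in GE and 37.6 ± 17.4 (n = 4) in S. The single libraries ranged from 50.5 to 151 in LE, from 45.1 to 85.2 in GE and from 15.4 to 53.0 in S, so the ranges overlapped. Among the genes with a count in all 21 libraries were SLC5A3, the sodium-coupled carrier of myo-inositol; SLC37A2, a sugar phosphate exchanger of the endoplasmic reticulum; SLC38A2, a sodium-coupled carrier of small neutral amino acids; and SLC44A1, a choline carrier. All LE libraries shared 20 genes with a count, all GE libraries 26 and all S libraries 15. In LE 1 gene had no count in any library, in GE 6, and in S 27. These numbers come from 9, 8 and 4 libraries, with median totals of 396656, 551548 and 221927 counts. The 123 genes were also taken from a table in which most libraries are epithelial. The share of all genes without a count was not counted, so a lack of carriers in stroma cannot be read from these numbers.

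The genes were grouped by family number into transport classes. The families SLC2, SLC5, SLC37, SLC45 and SLC50 form a class of 16 genes that is called the sugar families here, although it also holds SLC5A3 and SLC5A6, which carry an inositol and vitamins. In LE this class took 46.8% ± 8.77 (SD, n = 9) of all counts of the 123 genes, with single libraries from 31.9% to 58.9%. In GE it took 24.2% ± 6.67 (n = 8, 18.5% to 35.1%) and in S 21.9% ± 12.5 (n = 4, 10.1% to 39.5%). SLC5A3 and SLC37A2 alone made up 36.8% of the counts in LE, 19.1% in GE and 7.26% in S. The 26 genes of the amino acid and peptide families took 21.1% ± 6.15 in GE, 10.3% ± 1.94 in LE and 12.3% ± 4.64 in S. Shares of counts depend on transcript length as well as on level, so they describe the libraries and do not rank the genes.

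**Figure D1:**
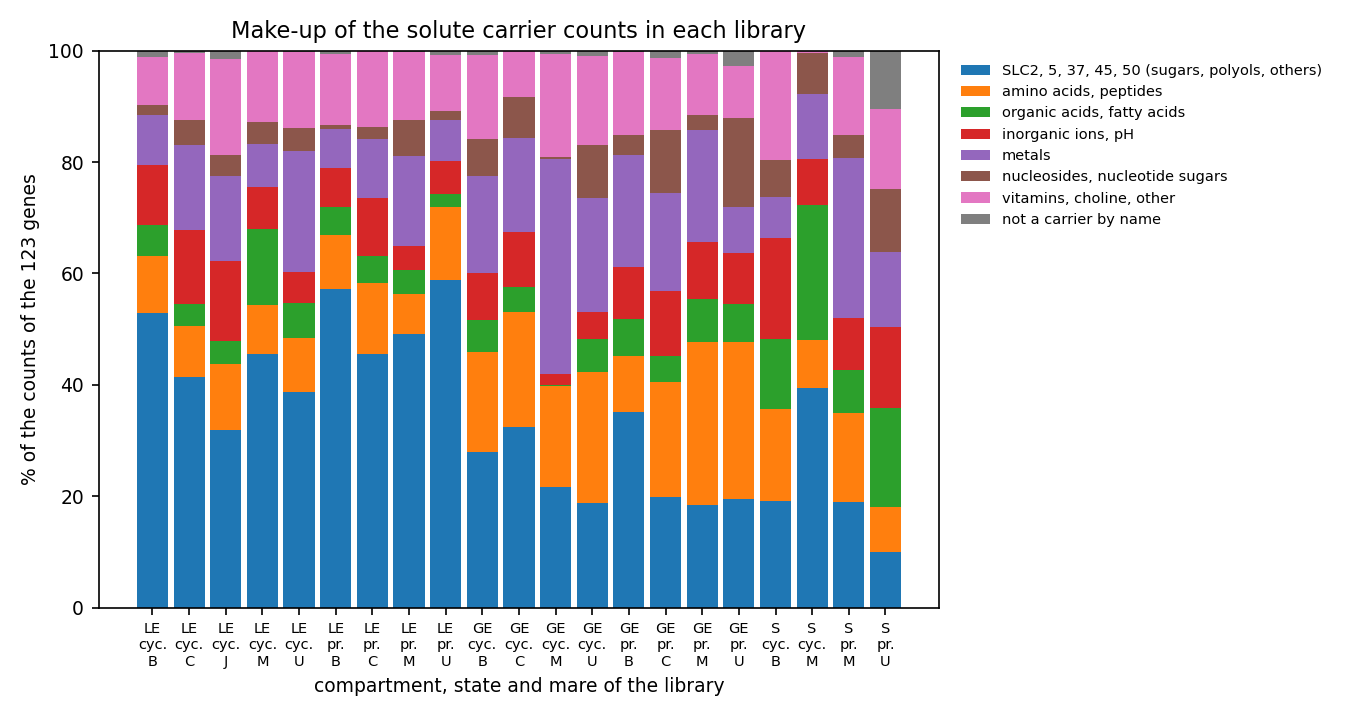
Share of the counts of the 123 genes (y axis, percent) that fell on each transport class in each of the 21 libraries (x axis, compartment, state and mare), stacked to 100. The sugar families (bottom) took 31.9% to 58.9% in the LE libraries and 18.5% to 35.1% in the GE libraries; the amino acid families (second from the bottom) averaged 21.1% in GE and 10.3% in LE.

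More of these genes were called between the epithelia than in any other comparison. Of the solute carriers tested, 7 were higher in LE and 9 were higher in GE. Those higher in LE were the glucose carriers SLC2A1 and SLC2A3, the carriers SLC5A3, SLC5A6 and SLC37A2 of the same class, the small amino acid carrier SLC36A2 and the iron exporter SLC40A1. Those higher in GE were the amino acid carriers SLC38A1, SLC7A8, SLC3A2 and SLC38A9, the metal carrier SLC39A8, SLC16A1, SLC22A23, SLC35A3 and SLC19A2. For this comparison the counts of each mare were summed per compartment, the mare entered as a block, and the quasi-likelihood test of edgeR was used with Benjamini-Hochberg adjustment over all genes, with 4 mares. Of the 123 genes 78 passed the filter on low counts, and these were the ones tested. SLC36A2, SLC3A2, SLC16A1, SLC19A2, SLC22A23 and SLC7A11, which was not called, had 1 to 8 counts in the lower compartment. They passed the filter through the higher compartment alone, for which their p-values make no allowance. The called genes were 7 higher and 9 lower of 78, beside 3.29% higher and 3.65% lower, 6.94% in all, of the 7174 genes tested. DESeq2 called these 16 and 4 more, 9 higher and 11 lower in all, beside 490 higher and 520 lower of the 7174 genes. The median log2 fold change (LE minus GE) was 0.02 over the 78 and -0.25 over all genes.

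All 16 called genes lay on the same side in 4 of 4 mares. These are the counts on which they were called, so this is no separate support. Limma-voom ended the calls of SLC7A8, SLC2A3, SLC40A1 and SLC38A9, testing without the filter those of SLC2A3, SLC40A1, SLC38A9 and SLC22A23, leaving out the block those of SLC37A2, SLC2A3 and SLC38A9, and weighting mares equally those of SLC5A6, SLC2A3 and SLC40A1. In the cyclic biopsies alone 1 of 44 tested solute carriers was called, beside 55 higher and 65 lower of all 4600 genes tested. In the pregnant ones alone 4 of 39 were called, beside 61 higher and 69 lower of 3988 genes. Higher in LE in all 4 mares were 11 of the 78 genes (background 10.6%), and higher in GE in all 4 mares were 15 (background 15.1%). No gene among the 78 had all 9 LE libraries above all 8 GE libraries (background 0.362%) or all below (background 0.599%).

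**Figure D2:**
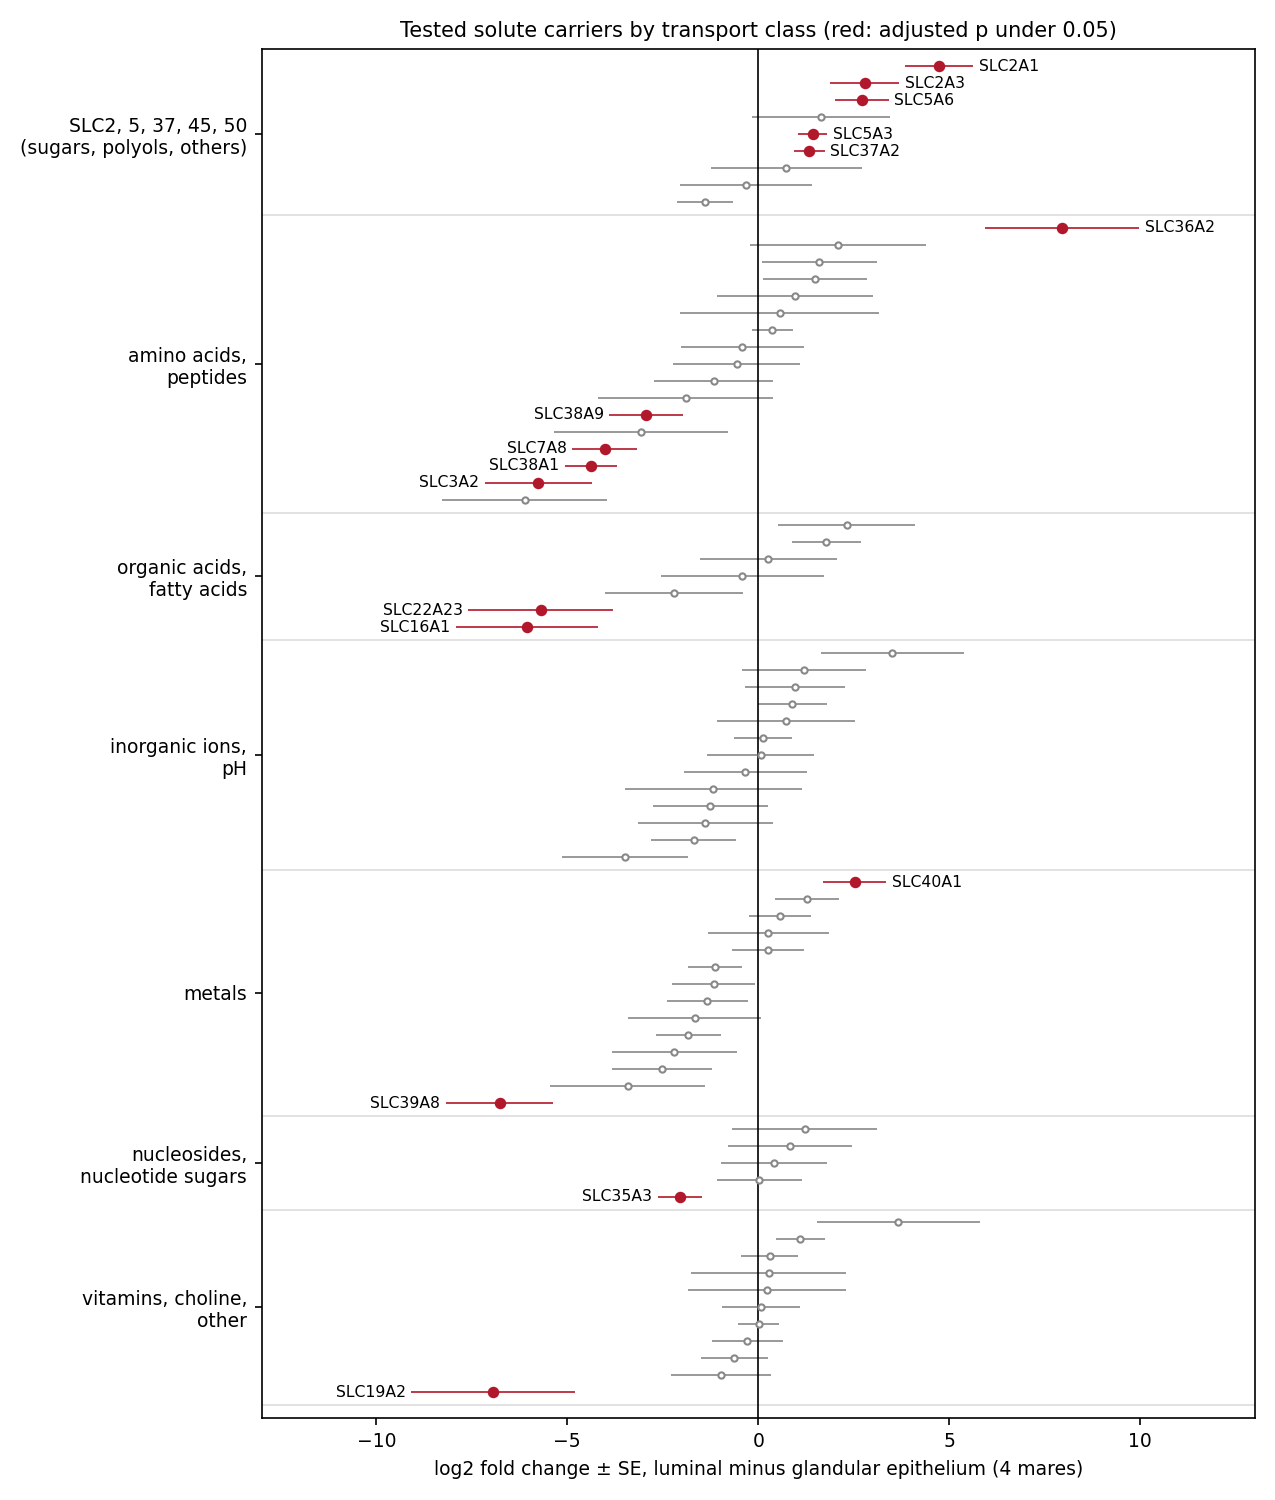
Log2 fold change ± SE of LE minus GE (x axis) for each tested solute carrier, grouped by transport class (y axis); the tested genes that are not carriers by name are left out. Red points passed the adjusted p threshold of 0.05. In the sugar families 5 of 9 passed, all to the right (higher in LE); in the amino acid families 1 passed to the right and 4 to the left. SLC2A3 and SLC40A1 lie on the other side of 0 in the pregnant biopsies alone.

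In the sugar families 9 of 16 genes were tested, 5 were higher in LE, none was lower, and the median log2 fold change was 1.43. SLC2A1 encodes the widespread facilitative glucose carrier of epithelia and barriers. Its level in LE was 5.13 CPM in the lowest library, 175 in the median and 862 in the highest, and in GE 0, 5.96 and 53.5. In LE 8 of the 9 libraries lay above the highest GE library, and the pregnant LE library of mare M lay below it. The log2 fold change was 4.74 ± 0.88 (SE, adjusted p = 6.09e-06), and 7 of 8 biopsies showed the direction. In the cyclic biopsies alone the adjusted p of SLC2A1 was 0.138.

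SLC5A3 and SLC37A2 differed by smaller factors but in every biopsy. SLC5A3 brings myo-inositol, an osmolyte and a building block of signalling lipids, into the cell. It stood at 763, 1901 and 3210 CPM (lowest, median, highest) in LE and at 195, 868 and 1573 CPM in GE, so the ranges overlapped between libraries of different biopsies. Within each of the 8 biopsies LE was higher, and the log2 fold change was 1.43 ± 0.38 (adjusted p = 0.00423). SLC37A2 stood at 501, 1155 and 3866 CPM in LE and at 177, 367 and 1082 CPM in GE, again higher in LE in 8 of 8 biopsies, with a log2 fold change of 1.34 ± 0.40 (adjusted p = 0.0156). Without mare B or mare U the adjusted p of SLC5A3 was 0.0622 and 0.129, and without mare B, C or U that of SLC37A2 was 0.100, 0.133 and 0.166.

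SLC5A6, the sodium-coupled carrier of biotin and pantothenate, stood at 5.13, 156 and 532 CPM in LE and at 6.75, 27.0 and 103 CPM in GE. Its log2 fold change was 2.71 ± 0.70 (adjusted p = 0.00324), with LE higher in 6 of 8 biopsies, and without mare B the adjusted p was 0.205. SLC2A3 is the high-affinity glucose carrier known from neurons and white blood cells. It stood at 0, 75.9 and 318 CPM in LE and at 2.09, 12.1 and 166 CPM in GE, with a log2 fold change of 2.79 ± 0.91 (adjusted p = 0.0346) over both states. The states differed in sign: in the cyclic biopsies alone the log2 fold change was 4.07 ± 1.36 (adjusted p = 0.0770), and in the pregnant ones alone -1.22 ± 2.24 (adjusted p = 0.904). Leaving out mare B, C, M or U gave an adjusted p of 0.188, 0.369, 0.0614 and 0.0800.

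In the amino acid and peptide families 17 of 26 genes were tested, 1 was higher in LE and 4 were higher in GE, with a median log2 fold change of -0.56. SLC36A2, a proton-coupled carrier of glycine, alanine and proline, had nearly all its counts in LE, most of them in pregnant LE. It stood at 71.8 to 225 CPM in the pregnant LE libraries and at 0 to 54.5 CPM in the cyclic ones. Its counts were 263 in the LE libraries, 1 in the GE libraries and 0 in the S libraries. The scaled ratio of LE to GE was 378 (exact 95% interval 67.3 to 14990, counting error only), and the log2 fold change was 7.96 ± 2.01 (adjusted p = 0.00242). LE was higher in 6 of 8 biopsies, and in the remaining ones, cyclic C and cyclic M, neither compartment had a count. The adjusted p was 0.0619 without mare C and 0.0625 without mare U. In the pregnant biopsies alone the log2 fold change was 9.47 (adjusted p = 0.00558), and in the cyclic ones alone SLC36A2 was not tested. In these fits SLC36A2 passed the filter on low counts through LE alone, for which the p-values make no allowance. It had no count in any S library, where it was at least 30.7-fold lower than in LE of the same biopsies, by a floor of 3 counts over the S libraries. In LE of those biopsies it stood at 2.08 CPM in cyclic B, 0 in cyclic M, 71.8 in pregnant M and 225 in pregnant U. The comparison of S with LE did not test it.

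SLC38A1, a sodium-coupled carrier of glutamine, gave the smallest p of all these genes. It stood at 36.3, 287 and 1149 CPM (lowest, median, highest) in GE and at 0, 10.4 and 111 CPM in LE. GE was higher in 8 of 8 biopsies, and the log2 fold change was -4.38 ± 0.68 (adjusted p = 1.54e-08). Over the leave-one-mare-out fits it ranged from -4.90 to -4.06, and in the cyclic biopsies alone the adjusted p was 0.127. The ranges of the compartments overlapped only through the pregnant GE library of mare B, at 36.3 CPM, and the cyclic LE libraries of mares J and U, at 48.7 and 111 CPM.

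SLC7A8 and SLC3A2 encode a light chain that exchanges large neutral amino acids and the heavy chain that carries it to the membrane, and both were higher in GE. SLC7A8 stood at 27.0, 168 and 601 CPM in GE and at 0, 3.11 and 156 CPM in LE. The LE maximum was a single library, pregnant mare B, and the other 8 LE libraries lay at or below 23.1 CPM, under the lowest GE library. The log2 fold change was -4.02 ± 0.84 (adjusted p = 9.13e-05), with GE higher in 8 of 8 biopsies. The adjusted p of SLC7A8 was 0.0508 with limma-voom and 0.438 in the cyclic biopsies alone. SLC3A2 stood at 0, 75.8 and 257 CPM in GE and at 0 to 11.2 CPM in LE, where the 4 pregnant libraries had no count. Its log2 fold change was -5.75 ± 1.41 (adjusted p = 0.00151), from 515 counts in GE and 8 in LE. GE was higher in 6 of 8 biopsies, LE in 1, and in pregnant U neither had a count. SLC3A2 was the only one of the 16 genes called in each of the 11 alternatives that gave it a value. It had none in the cyclic or the pregnant biopsies alone. The cyclic biopsies alone were the only alternative that ended the calls of SLC38A1 and SLC2A1, so these genes cannot be ranked by stability.

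SLC7A11, the cystine and glutamate exchanger that uses the same heavy chain, lay just outside the threshold by edgeR. It had 2 counts in LE and 164 in GE, with a log2 fold change of -6.12 ± 2.15 (adjusted p = 0.0605). It was called by DESeq2 (-6.19, adjusted p = 0.00354) and by limma-voom (-5.14, adjusted p = 0.0486). SLC38A9, a lysosomal carrier and sensor of arginine, lay just inside it. It stood at 9.08, 132 and 254 CPM in GE and at 0, 15.4 and 104 CPM in LE, with GE higher in 8 of 8 biopsies and a log2 fold change of -2.93 ± 0.96 (adjusted p = 0.0375). With DESeq2's size factors in place of TMM the adjusted p of SLC38A9 was 0.0505, and without mare B, C or M it was 0.344, 0.253 and 0.0867. SLC38A2 did not pass: it stood at 56.4 to 452 CPM in LE and at 68.1 to 1560 CPM in GE.

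**Figure D3:**
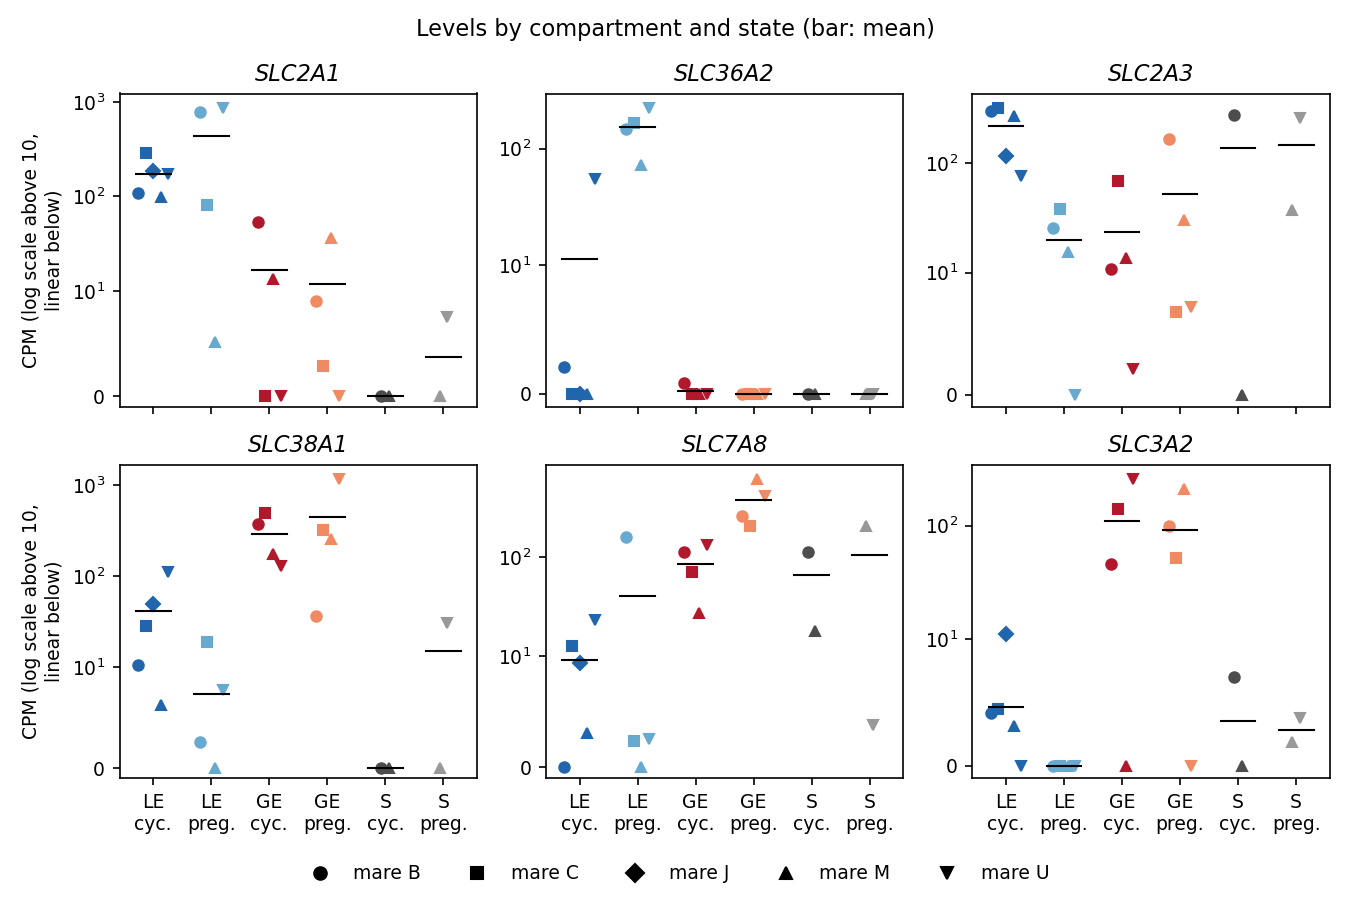
Levels in CPM (y axis, linear below 10 and logarithmic above) of 6 carriers in the 6 groups (x axis, compartment and state); each point is a library, its shape the mare, and bars are group means. SLC2A1 and SLC36A2 have their highest libraries in LE, SLC38A1, SLC7A8 and SLC3A2 in GE; SLC2A3 is high in cyclic LE (75.9 to 318 CPM) and low in pregnant LE (0 to 37.8 CPM).

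Among the 14 tested of 19 metal carriers 1 was higher in LE and 1 higher in GE. SLC39A8, which imports zinc and manganese, stood at 16.8, 90.8 and 1479 CPM in GE. In LE it had counts in 3 of 9 libraries, up to 39.4 CPM. The log2 fold change was -6.77 ± 1.40 (adjusted p = 7.74e-05), with GE higher in 8 of 8 biopsies. The highest GE library, cyclic mare M, stood far above the next at 164 CPM, and without mare M the log2 fold change was -5.85 with an adjusted p of 0.0614. SLC40A1, ferroportin, which exports iron, stood at 0, 202 and 535 CPM in LE and at 4.81, 39.6 and 79.5 CPM in GE. Its log2 fold change was 2.52 ± 0.82 (adjusted p = 0.0346) over both states, 3.60 ± 1.33 in the cyclic biopsies alone and -0.90 ± 2.33 in the pregnant ones. The adjusted p of SLC40A1 was 0.150, 0.191 and 0.601 without mare B, M and U.

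The other 4 called genes were all higher in GE. SLC35A3, the Golgi carrier of UDP-N-acetylglucosamine, which feeds the sugar chains of secreted proteins, stood at 27.0, 317 and 945 CPM in GE and at 10.2, 74.7 and 191 CPM in LE. Its log2 fold change was -2.05 ± 0.58 (adjusted p = 0.00955), with GE higher in 7 of 8 biopsies. Without mare B, C or U its adjusted p was 0.302, 0.124 and 0.110. SLC16A1, the proton-coupled carrier of lactate and pyruvate, had 349 counts in GE and 6 in LE. It stood at 2.27 to 175 CPM in GE and at 0 to 4.73 CPM in LE, with GE higher in 8 of 8 biopsies and a log2 fold change of -6.05 ± 1.87 (adjusted p = 0.0216).

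SLC19A2, a thiamine carrier, had 280 counts in GE and 2 in LE. The scaled ratio was 97.4 (exact 95% interval 26.7 to 808, counting error only) and the log2 fold change -6.94 ± 2.14 (adjusted p = 0.0218). SLC22A23, a member of the organic ion family with no settled substrate, had 315 counts in GE and 5 in LE, with a log2 fold change of -5.69 ± 1.90 (adjusted p = 0.0419). Both had no count in 2 of the 8 GE libraries. Leaving out any of the 4 mares ended the calls of SLC16A1 (adjusted p from 0.0629 to 0.170), SLC19A2 (from 0.0743 to 0.206) and SLC22A23 (from 0.0688 to 0.426). None of the 13 tested inorganic ion carriers passed by edgeR; the smallest adjusted p among them, 0.266, was that of SLC24A4, a sodium, calcium and potassium exchanger. DESeq2 called 2 of them, SLC24A4 (-3.42, adjusted p = 0.0169) and the sodium and proton exchanger SLC9A4 (3.74, adjusted p = 0.0201).

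**Figure D4:**
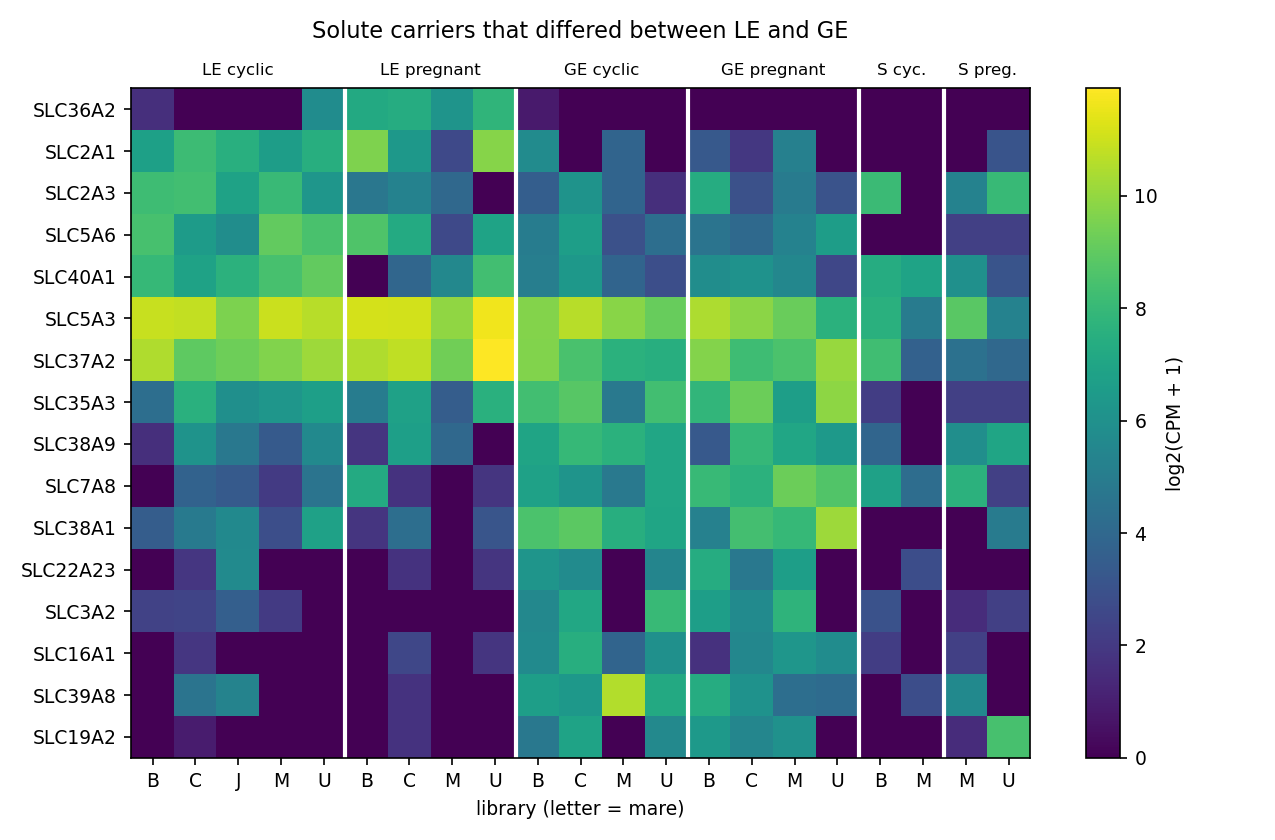
Log2(CPM + 1) (colour) of the 16 carriers called between LE and GE (rows, from highest to lowest log2 fold change) in the 21 libraries (columns, by compartment, state and mare). SLC5A3 and SLC37A2 have counts in all libraries; SLC36A2 has counts in 6 LE libraries and 1 GE library; SLC3A2, SLC16A1, SLC39A8 and SLC19A2 have counts in at most 4 of 9 LE libraries. SLC2A3 and SLC40A1 are above GE in the cyclic biopsies, with a negative log2 fold change in the pregnant ones alone.

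Markers of other cells moved with this contrast. The summed level of 3 genes of ciliated cells was 103 to 2035 CPM in LE and 4.81 to 472 in GE. That of 5 leukocyte genes was 1528 to 8371 CPM in LE and 154 to 639 in GE, most of it from CD74, which epithelia also make. Without CD74 it was 12.8 to 408 CPM in LE, 0 to 85.5 in GE and 103 to 801 in S. SLC2A3 and SLC40A1 were also present in stroma, at 0 to 276 and 7.55 to 168 CPM, whereas SLC2A1, SLC5A6 and SLC36A2 reached at most 7.55, 3.77 and 0 CPM there. Of the genes higher in GE, SLC7A8 and SLC38A9 reached 203 and 128 CPM in S. They had 144 and 69 counts in S against 2 and 7 in LE of the same biopsies, which was not tested. SLC19A2 reached 347 CPM in pregnant U and at most 1.88 CPM in the other S libraries. SLC39A8 and SLC38A1 reached 48.8 and 30.2 CPM in S, and SLC3A2, SLC16A1, SLC22A23 and SLC35A3 stayed under 7.55 CPM. The part of stromal fibroblasts, leukocytes and ciliated cells in the differences between LE and GE was not tested.

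Genes of sugar, amino acid and metal use were read from lists of their own. Of 20 genes of sugar metabolism 17 were tested between LE and GE. PFKP, a phosphofructokinase, was higher in LE (log2 fold change 2.90 ± 0.86, adjusted p = 0.0154), and HK2, a hexokinase, and LDHB, a lactate dehydrogenase subunit, were higher in GE (-6.10 ± 2.002, adjusted p = 0.0366, and -2.23 ± 0.64, adjusted p = 0.0102). Of 14 genes of amino acid use 11 were tested and SAT1, which acetylates polyamines, was higher in LE (1.76 ± 0.38, adjusted p = 0.000179). Of 13 genes of zinc, iron and copper handling 7 were tested and CP, the iron-oxidising protein that works beside ferroportin, was higher in LE (3.98 ± 1.12, adjusted p = 0.00859). Of 6 transporter partners 3 were tested and none passed.

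Stroma was compared with each epithelium in 3 mares (B, M and U), over the biopsies that gave both compartments. By edgeR no solute carrier was called higher in stroma, whereas DESeq2 called 1 higher against LE, SLC29A1, and 2 against GE, SLC29A1 and SLC2A3 (4.05, adjusted p = 0.0249). Of all genes DESeq2 called 170 higher and 304 lower of 3512 against LE. Against GE it called 209 higher and 295 lower of 4830. By edgeR, 29 genes were tested against LE and 3 were lower in S. Of all 3512 genes, 1.74% were called in either direction and 1.17% lower. By edgeR, 47 genes were tested against GE and 2 were lower in S. Of all 4830 genes, 1.3% were called in either direction and 0.518% lower. The median log2 fold change was -2.77 over the 29 genes and -0.60 over all genes against LE, and -2.40 over the 47 genes and -1.07 over all genes against GE. How many of all genes had S libraries apart from those of an epithelium was not counted. Where S lies outside an epithelium's range below, this is given as values only.

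The 3 genes lower in S than in LE were all among the 5 genes of the sugar families called between LE and GE, a comparison with which this one shares LE libraries. SLC37A2 stood at 308 CPM in cyclic B, 12.0 in cyclic M, 20.6 in pregnant M and 15.1 in pregnant U, all below the lowest LE library (501). The log2 fold change (S minus LE) was -5.00 ± 1.13 (adjusted p = 0.00163). SLC5A3 stood at 185, 30.02, 469 and 37.8 CPM in the same 4 libraries, again all below the lowest LE library (763), with a log2 fold change of -3.72 ± 1.00 (adjusted p = 0.0152). SLC2A1 had 2 counts in S, both in pregnant U, against 419 in LE of the same biopsies; the scaled ratio was 189 (exact 95% interval 52.1 to 1568, counting error only) and the log2 fold change -7.26 ± 2.09 (adjusted p = 0.0348). Without mare B, M or U the adjusted p of SLC37A2 was 0.00979, 0.0960 and 0.0923, that of SLC5A3 0.266, 0.0486 and 0.150, and that of SLC2A1 0.116, 0.224 and 1. With limma-voom the adjusted p was 0.322 for SLC37A2 and SLC5A3 and 0.308 for SLC2A1. With its 2 counts in S, SLC2A1 passed the filter on low counts through LE, for which its p-values make no allowance.

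The 2 genes lower in S than in GE were SLC38A1 and SLC35A3. SLC38A1 had 8 counts in S, all in pregnant U (30.2 CPM), below every GE library, with a log2 fold change of -7.21 ± 1.59 (adjusted p = 0.00465). SLC35A3 stood at 0 to 3.77 CPM in S, below the lowest GE library (27.0), with a log2 fold change of -6.22 ± 1.66 (adjusted p = 0.0236). With 8 and 4 counts in S, SLC38A1 and SLC35A3 passed the filter through GE, for which the p-values make no allowance. Leaving out any of the 3 mares ended both calls, with adjusted p from 0.0774 to 0.175 for SLC38A1 and from 0.175 to 0.778 for SLC35A3. In the pregnant S library of mare M 66.2% of the counts fell on RN18S. Without that biopsy the adjusted p was 0.00225 for SLC37A2 and 0.000354 for SLC5A3 against LE, 0.118 for SLC2A1 against LE and 0.124 for SLC38A1 against GE, and SLC35A3 was not tested against GE. Of the lists of nutrient handling, SAT1 was lower in S than in LE (-3.84 ± 0.98, adjusted p = 0.00863). Against GE, PKM, a pyruvate kinase, was higher in S (6.46 ± 1.85, adjusted p = 0.0387) and EMB, embigin, a partner of monocarboxylate carriers, was lower (-4.32 ± 1.07, adjusted p = 0.0116).

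Among the carriers with higher values in stroma, SLC29A1 had the smallest p against both epithelia without passing edgeR's test. SLC29A1, the equilibrative nucleoside carrier, stood at 276, 192, 118 and 351 CPM in cyclic B, cyclic M, pregnant M and pregnant U. In LE it stood at 0 to 162 CPM and in GE at 0 to 81.8 CPM. The S libraries lay above the GE range, and 1 LE library, cyclic mare M, reached into the S range. The share of all genes with such a gap was not counted. The log2 fold change was 5.70 ± 2.56 against LE (adjusted p = 0.357) and 3.54 ± 1.74 against GE (adjusted p = 0.474), higher in S in 3 of 3 mares in both. DESeq2, which called many more of all genes than edgeR in both, gave adjusted p of 0.00169 and 0.0169 for the same contrasts.

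By edgeR, pregnancy changed no solute carrier past the threshold in any compartment. In LE, 44 genes were tested in 4 pregnant against 5 cyclic libraries and 0 were called by edgeR's quasi-likelihood test, beside 0.437% of 4344 genes; 4 of the 44 had an unadjusted p under 0.05, beside 7.8% of all genes. In GE, 53 genes were tested in 4 against 4 libraries and 0 were called, beside 0.0623% of 4816 genes; 5 had an unadjusted p under 0.05, beside 7.27%. In S, 13 genes were tested in 2 against 2 libraries and 0 were called, beside 0% of 2212 genes; none had an unadjusted p under 0.05, beside 3.98%. DESeq2 called 1 of the 44 genes in LE, beside 29 higher and 54 lower of the 4344 genes, and none of the carriers in GE or S. The absence of calls does not show that the carriers were alike in pregnancy and cycle.

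In LE the smallest p belonged to SLC2A3. It stood at 296, 318, 116, 271 and 75.9 CPM in the cyclic libraries of mares B, C, J, M and U, and at 25.6, 37.8, 15.4 and 0 CPM in the pregnant ones of B, C, M and U. All pregnant libraries lay below all cyclic ones (background 3.29%), and the log2 fold change was -3.43 ± 1.28 (adjusted p = 0.317). DESeq2 gave -3.31 ± 0.95 with an adjusted p of 0.0334 for SLC2A3, and over the other alternatives the adjusted p lay between 0.253 and 1. The summed level of the 5 leukocyte genes was 1528 to 5295 CPM (median 2402) in cyclic LE and 1877 to 8371 CPM (median 5109) in pregnant LE. Without CD74 it was 79.1 to 408 CPM in cyclic LE and 12.8 to 77.5 CPM in pregnant LE. Their part in the SLC2A3 values was not tested.

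SLC36A2 lay the other way. It stood at 149, 165, 71.8 and 225 CPM in pregnant LE of B, C, M and U. In the cyclic ones it had 1 count in mare B (2.08 CPM), 33 in mare U (54.5 CPM) and none in mares C, J and M. All pregnant libraries lay above all cyclic ones (background 1.52%), and the log2 fold change of SLC36A2 was 3.77 ± 1.55 (adjusted p = 0.416). It passed the filter on low counts through its pregnant libraries, for which the p-value makes no allowance. Without the cyclic library of mare U it was 7.69 with an adjusted p of 0.0722, and over the other alternatives the adjusted p lay between 0.119 and 1. Of its 264 counts in all libraries, 229 lay in pregnant LE, 34 in cyclic LE and 1 in GE.

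SLC38A10, a relative of the sodium-coupled amino acid carriers, was the other gene without overlap in LE. Its cyclic libraries lay between 42.9 and 121 CPM and its pregnant ones between 0 and 15.4 CPM, with a log2 fold change of -3.43 ± 1.80 (adjusted p = 0.662). SLC46A2, chosen here after its values were seen, did not pass the filter on low counts. It stood at 223, 210, 0 and 191 CPM in pregnant B, C, M and U and at 0 to 11.6 CPM in the 5 cyclic libraries. It passed the filter only where the pregnant library of mare M, in which it had no count, was left out, so no test of it is given. SLC2A1 stood at 776 and 862 CPM in pregnant B and U but at 80.4 and 5.13 CPM in pregnant C and M, so 2 pregnant libraries lay above and 2 below the cyclic range of 99.6 to 291 CPM, with a log2 fold change of 1.35 ± 0.80 (adjusted p = 0.746). SLC37A2 showed 1.09 ± 0.57 (adjusted p = 0.657), higher in pregnancy in 3 of 4 mares, and SLC5A3 0.43 ± 0.54 (adjusted p = 0.973).

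Of the 44 genes in LE 7 were lower and 2 were higher in pregnancy in all 4 mares that gave both states, beside 11.8% and 5.62% of all genes. The remaining genes of the 10 with the smallest p in LE were SLC15A4, a lysosomal carrier of histidine and small peptides (3.37 ± 1.56), SLC66A3 (-3.54 ± 1.76), the carnitine carrier SLC22A5 (-2.02 ± 1.19), SLC40A1 (-1.62 ± 0.97) and SLC35A5 (-2.63 ± 1.69). Their adjusted p lay between 0.532 and 0.799. The median log2 fold change in LE was -0.16 over the 44 genes and -0.04 over all genes.

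In GE, SLC7A8 was the one carrier with all pregnant libraries above all cyclic ones (background 1.81%). It stood at 112, 70.2, 27.0 and 131 CPM in cyclic B, C, M and U and at 257, 204, 601 and 411 CPM in the pregnant libraries of the same mares. The log2 fold change was 2.14 ± 0.93 (adjusted p = 0.507), higher in pregnancy in 4 of 4 mares. Its heavy chain partner SLC3A2 stood at 46.1, 139, 0 and 257 CPM in cyclic and at 99.9, 51.7, 212 and 0 CPM in pregnant B, C, M and U. The log2 fold change of SLC3A2 by edgeR was -0.25 ± 1.18 (adjusted p = 0.999). Neither SLC7A8 nor SLC3A2 passed, and their changes were not compared. SLC38A1 stood at 374, 486, 176 and 129 CPM and at 36.3, 322, 252 and 1149 CPM, with a log2 fold change of 0.61 ± 0.84 whose sign turned in some alternatives.

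The 6 negative values among the 10 smallest p in GE came with 1 high library. In cyclic mare M, SLC30A9 stood at 1519 CPM against 0 to 39.6 in the other cyclic GE libraries, and the zinc importer SLC39A8 at 1479 against 79.5 to 152. SLC38A2 stood there at 1560 CPM against 121 to 313, SLC37A3 at 1351 against 71.7 to 138, the lysosomal sialic acid carrier SLC17A5 at 1256 against 201 to 292, and the zinc importer SLC39A10 at 506 against 1.56 to 60.5. With that library the log2 fold changes were -3.11 for SLC30A9, -2.67 for SLC39A8, -3.20 for SLC39A10, -2.07 for SLC37A3, -1.72 for SLC38A2 and -1.71 for SLC17A5. Without it they were 0.72, -0.72, -0.91, -0.17, -0.36 and -0.70. SLC17A5 was also the one gene with all pregnant GE libraries below all cyclic ones (background 1.02%). The cyclic library of mare M held 222623 counts, the lowest total in GE, and had counts for 46 of the 123 genes against 66 to 110 in the other GE libraries.

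**Figure D5:**
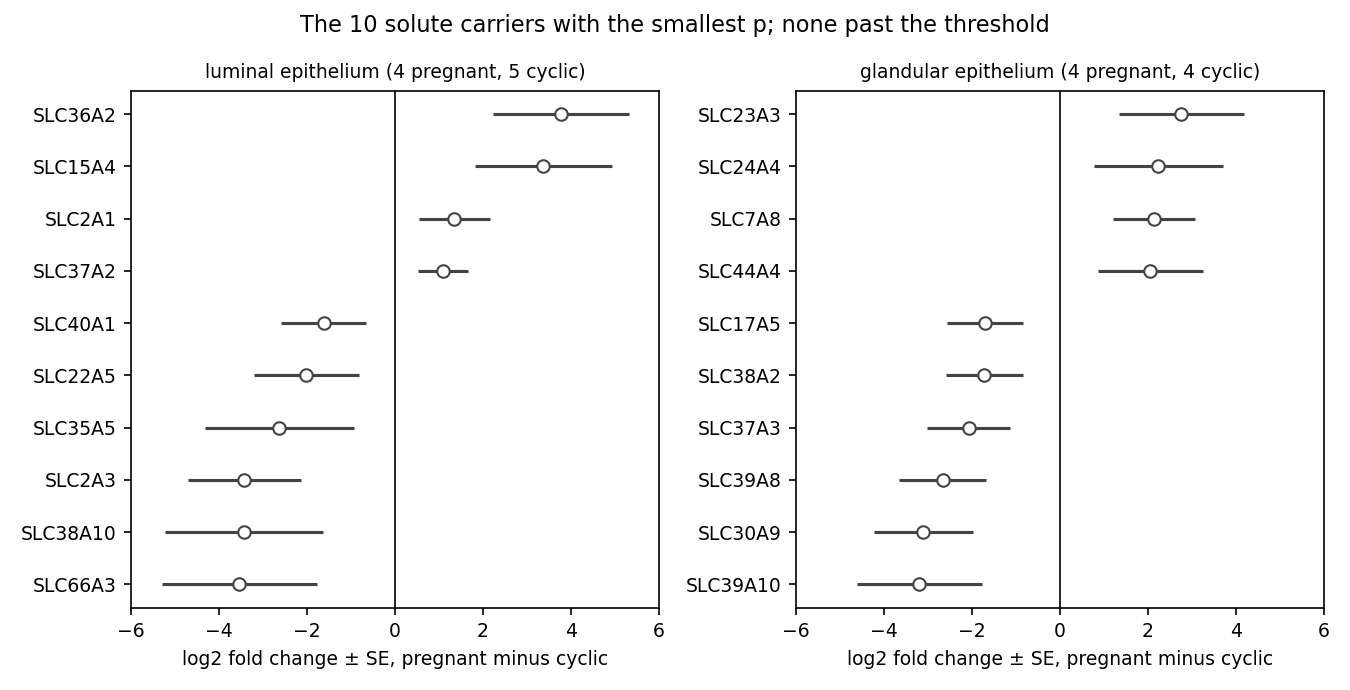
Log2 fold change ± SE of pregnant minus cyclic (x axis) for the 10 solute carriers with the smallest p (y axis) in LE (left) and GE (right). None passed the adjusted p threshold of 0.05 by edgeR. The 6 negative values in GE belong to genes with their highest GE level in cyclic mare M; without that library the value of SLC30A9 is 0.72.

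The remaining genes of the 10 with the smallest p in GE were SLC23A3, an orphan of the ascorbate carrier family (2.77 ± 1.41), SLC44A4, a choline-like carrier (2.06 ± 1.20), and SLC24A4 (2.24 ± 1.46), with adjusted p between 0.700 and 0.909. Of the 53 genes 7 were higher and 2 were lower in pregnancy in all 4 mares, beside 7.87% and 3.97% of all genes. The median log2 fold change was 0.46 over the 53 genes and 0.07 over all genes. In S the 13 tested carriers had adjusted p from 0.999 to 1, and SLC39A9, with the smallest p, showed 4.95 ± 3.47.

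Whether the effect of pregnancy differed between the epithelia was tested as the interaction of compartment and state over the 16 epithelial libraries left without mare J, in a fit blocked by biopsy. Of 79 genes tested 0 were called by edgeR, beside 0.0145% of 6884 genes, and 4 had an unadjusted p under 0.05, beside 5.53%. These 4 were SLC44A4 (4.65 ± 1.87), SLC2A3 (5.26 ± 2.33), the iron importer SLC11A2 (6.49 ± 2.97) and the phosphate carrier SLC20A2 (6.76 ± 3.16), all with adjusted p of 0.867. The positive sign means a more positive pregnancy effect in GE than in LE, and over all genes the median was already 1.28, against 1.92 over the 79 genes. SLC36A2 had an interaction of -6.28 ± 4.30 (adjusted p = 0.888). The differences between the cyclic and the pregnant values of LE minus GE given for SLC2A3 and SLC40A1 were therefore not past the threshold. None of the tested genes on the lists of sugar metabolism, amino acid use, metal handling and transporter partners was called for pregnancy or for the interaction.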

How the data were processed

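The submitters' processing notes name HISAT2 2.0.3 and Trimmomatic 0.32.2. The sources used here do not give the genome build, the annotation, the counting tool or how overlapping genes were handled. The authors deposited raw read counts for 24942 gene IDs in 21 libraries. The authors also deposited tables of scaled signal named CPM, in which each value is the count over a constant of its library (largest relative deviation 9.6e-15); they chose the members and served as an alternative. A second such table holds 19 libraries, without LE pregnant M and GE cyclic M. Libraries were made from 1 ng of RNA with extra amplification for some, per the labels' protocols, without a list of those; reads carry no molecular identifiers, so intervals and floors cover counting error only. Symbols came from a RefSeq table by gene ID (21420 IDs, 85.9%), for names only.

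Counts were tested in R 4.3.3 with edgeR 4.0.16 (TMM, filterByExpr with a minimum count of 10 and a minimum total of 15, quasi-likelihood F test, two-sided, Benjamini-Hochberg over all genes tested, threshold 0.05). Pregnant and cyclic libraries were compared within compartments without a block; compartments were compared on counts summed per mare, with the mare as block; the interaction had the biopsy as block. The SE is the log2 fold change over the square root of F, which is not a spread over mares. Levels are CPM of the TMM-scaled size, and exact intervals have 95% confidence. Alternatives were DESeq2 1.42.0, its size factors, voom of limma 3.58.1, no filter, no ribosomal genes, the block, and each replicate left out. Limma on log2(signal + 1) and the 19 libraries were used for pregnancy in LE and GE only. LE minus GE was thus not fitted on the 19 libraries, although each mare was left out in turn. Mares were weighted equally between compartments only, and each state alone was fitted for LE minus GE only. Stroma without the pregnant biopsy of mare M was added after seeing the data. The fits were also run on simulated counts for pregnancy in LE, LE minus GE, S minus LE and the interaction. Those counts came from a fitted model without extra amplification, so they cannot show how the fits handle it. No result given here rests on them. The labels give the same mare in both states. Deviations of same-mare libraries correlated at 0.0192 to 0.0649 in LE and -0.0364 to 0.0521 in GE. The highest correlation with another mare was -0.00269 to 0.0394 in LE, below the same-mare value for every mare. In GE it was 0.0159 to 0.0984, above the same-mare value for mares B, C and M and below it for U.

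The members, transport classes and gene lists were chosen with earlier results of these data known. Genes named are SLC38A1, SLC2A1 and SLC36A2, those past 0.05, the 10 with the smallest p in each comparison, and up to 5 per class with the highest counts; values are given for those the text turns on.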

Additional observations from a re-analysis of the deposited data

Results flagged for a closer look

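Each gene called in a comparison, and the summed level of the 123 genes, was examined in each group of 4 or 5 libraries on the log2(CPM + 1) scale by Dixon's criterion at 95%, which flags a lowest or highest library whose gap to its neighbour is large beside the range of the group. Of 68 groups 13 were flagged. The criterion's rate of about 1 in 20 by chance holds for continuous values. A group with a count in 1 library only is flagged whatever that count is, so the 13 cannot be set against that rate.

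Most are single libraries with or without a few counts. In LE the high libraries were SLC16A1 in cyclic C (2.70 CPM), SLC19A2 in cyclic C (0.899) and in pregnant C (2.36), SLC39A8 in pregnant C (2.36) and SLC36A2 in cyclic U (54.5), the others of those groups being at or near 0. In GE, SLC36A2 had its 1 count in cyclic B (0.824 CPM). The low GE libraries were SLC16A1 in pregnant B (2.27), SLC19A2 in pregnant U (0), SLC22A23 in cyclic M (0), SLC35A3 in cyclic M (27.0) and SLC40A1 in pregnant U (4.81). SLC5A3 was low in LE of cyclic J (763), and the summed level of the 123 genes was low in GE of cyclic U (65.0 per 10000 counts).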

How the results depend on the processing

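In LE minus GE, 6 to 9 solute carriers were called with 1 mare left out instead of 16. Calls over all genes fell too, from 236 higher and 262 lower of 7174 in the main fit. They were 105 and 125 of 7124 without mare B, and 125 and 155 of 6842 without mare C. Without mare M they were 204 and 207 of 8197, and without mare U 164 and 177 of 8126. In the cyclic biopsies alone 1 of 44 tested was called, and in the pregnant ones 4 of 39. In the pregnant ones SLC2A3 (-1.22) and SLC40A1 (-0.90) reversed. With mares weighted equally 4 were higher and 10 lower, beside 212 higher and 362 lower of all 7174 genes. In S minus LE (main 3), DESeq2 called 9, beside 170 higher and 304 lower of all genes. No filter gave 1 there, limma-voom 0 and leaving out a mare 0 to 1. Of all genes, no filter called 10 higher and 19 lower of 12518, and limma-voom 3 and 0 of 3512. Leaving out mare B, M or U gave 9 and 15 of 4016, 6 and 12 of 3773, and 15 and 21 of 4477. In S minus GE (main 2), DESeq2 called 8, beside 209 higher and 295 lower of all genes. No filter gave 1 there, equal weights 1, leaving out a mare 0, and leaving out the pregnant biopsy of mare M 0. Of all genes, no filter called 11 higher and 9 lower of 13453, and equal weights 30 and 34 of 4830. Leaving out mare B, M or U gave 0 and 0 of 4991, 0 and 2 of 3989, and 25 and 20 of 6846. Without the pregnant biopsy of mare M, 3 and 6 of 2229 genes were called. For pregnancy in LE (main 0), DESeq2 called 1 (SLC2A3), beside 29 higher and 54 lower of 4344 genes. The libraries of the 19-library table called 1 (SLC46A2), beside 27 higher and 10 lower of 5430 genes, and leave-one-out fits 0 to 1. SLC46A2 passed the filter only without LE pregnant M, where it had no count. With the mare as block no solute carrier was called for pregnancy in LE or GE (0). Of all genes, 8 higher and 4 lower of 3759 were called in LE, and 0 and 0 of 4816 in GE. Without the block 13 carriers were called in LE minus GE, 4 in S minus LE and 2 in S minus GE. Of all genes, these fits called 210 higher and 202 lower of 7174, 36 and 53 of 3512, and 60 and 39 of 4830. No paired fit was possible within S, whose states share 1 mare.

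Other signs that turned belonged to changes that did not pass. In LE, SLC2A1 was -0.25 on the deposited signal. In GE, SLC30A9 was 0.80 with voom and 0.72 with the 19 libraries (-3.80 to 0.72 leaving out a library), and SLC38A1 was -0.16 with voom, -0.017 with the block and -0.070 on the deposited signal (-0.49 to 1.04). In S, voom gave 0.73 for SLC44A1, -0.26 for SLC7A8, -0.024 for SLC4A7 and 1.83 for SLC44A2. Leaving out an S library gave -1.62 to 3.34 for SLC5A3, -2.12 to 4.53 for SLC44A1, -4.05 to 2.79 for SLC7A8, -0.41 to 2.14 for SLC37A3, -0.63 to 6.65 for SLC8A1, -4.85 to 8.65 for SLC4A7 and -1.42 to 8.13 for SLC44A2. The SLC2A1 interaction ranged from -2.30 to 2.24 over left-out mares. The causes were not tested.

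Of all values for single genes under alternatives, 814 kept their direction and side of the threshold, 88 lost a call, 14 gained one and 26 reversed. The 814 include genes that were not called in the main fit and stayed so. Only a gene called there can lose a call, so the 88 cannot be set against all values. Among genes called between LE and GE, the alternatives that kept the call ranged from 11 of 11 (SLC3A2) to 3 of 13 (SLC2A3). DESeq2's size factors moved the median log2 fold change of all genes from -0.04 to 0.11 (pregnancy in LE), 0.07 to -0.05 (GE), 0.26 to 0.02 (S), -1.07 to -0.79 (S minus GE) and 1.28 to 0.98 (interaction). In single libraries 30 to 110 of the 123 genes had a count, and 13 to 79 passed the filter on low counts of a comparison; the others could not be tested.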
